A study of Mus musculus with 13 samples.

Results

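In mouse leukaemia carrying the MLL-AF9 oncogene, 72 DNA barcodes persisted in all 6 mice without becoming dominant in any. They were chosen from the measured values. A mouse mean was the mean of the bone marrow and spleen CPM of a mouse, where CPM are barcode reads per 1000000 reads of a library. A member had a mouse mean of at least 10 CPM in all 6 mice, a mouse mean under 10000 CPM (1% of a library) in all 6 mice, and at least 100 CPM in the library of the starting cells. Of 2505 barcodes in the table, 115 reached 10 CPM in all 6 mice, 77 of these stayed under 10000 CPM in each, and 72 of those had at least 100 CPM at the start. The members were 7.75% of the 929 barcodes at 100 CPM or more at the start.

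Mice 1, 2 and 3 were of the Ptprca strain, which has an intact immune system. Mice 4, 5 and 6 were NSG mice, whose T, B and natural killer cells are missing. At disease, viable cells were sorted from the bone marrow and the spleen of each animal, giving 12 libraries. A single baseline library came from the c-Kit positive haematopoietic progenitors that had been cultured with cytokines and transduced with SPLINTR barcodes. All groups therefore carry MLL-AF9 leukaemia or its starting cells, and no other treatment is named. The sources used here do not give ages, sexes or cell doses, nor say that all mice received cells of the same transduced pool.

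A SPLINTR barcode is a short tag placed in the genome of a transduced cell by a viral vector and inherited by all its descendants, so that barcode abundance follows the size of a clone. A cell that takes up several vectors carries several barcodes, and a barcode count is then not a count of clones. In transplanted acute leukaemia a small number of clones often comes to fill the organs. The barcodes described here are those present in every animal with a mouse mean under 10000 CPM in each. The table names barcodes by number, and their sequences were not used here.

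Values averaged 2 technical repeats, which together held 2484519 to 5252942 reads in a library. The floor of a library, set where its shallower repeat would hold 3 reads, lay at 0.575 to 8.80 CPM. It was highest in Ptprca mouse 3 bone marrow, where 6 members were above 0 and below it. In that library 8 depths of the shallower repeat matched the values. The lowest was adopted, because each of the 7 others would make the reads of that repeat a multiple of 2, 3, 4 or 5 for every barcode resolved. Its floor and total rest on that choice. Repeats of members at 100 to 1000 CPM differed most in the NSG spleens, where their log2 ratio had an SD of 2.19 (mouse 4), 1.77 (mouse 5) and 1.94 (mouse 6), against at most 0.62 elsewhere. The 3 NSG spleens therefore stand apart. With NSG mice represented by bone marrow alone, the same rule gave 68 barcodes, 65 of them among the 72. PCR reads lacking molecular identifiers do not count molecules, so floors and intervals describe counting error alone.

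The thresholds split barcodes of similar abundance. The lowest mouse mean was 10.2 CPM for GFP_Barcode_32687, 10.5 CPM for GFP_Barcode_94075 and 10.6 CPM for GFP_Barcode_7745, just inside the lower limit. Just outside it were GFP_Barcode_23977 at 9.94 CPM, GFP_Barcode_56798 at 9.25 CPM and GFP_Barcode_75057 at 8.65 CPM. At the upper limit, the highest mouse mean was 9936 CPM for GFP_Barcode_32687, 9598 CPM for GFP_Barcode_78457 and 9457 CPM for GFP_Barcode_585, against 10324 CPM for GFP_Barcode_32021, 10567 CPM for GFP_Barcode_154004 and 11829 CPM for GFP_Barcode_54250. Among the members, GFP_Barcode_32687 thus lay nearest to both limits. At baseline, GFP_Barcode_23154, GFP_Barcode_88835 and GFP_Barcode_15540 were just inside at 111, 115 and 121 CPM, and GFP_Barcode_57652, GFP_Barcode_4266 and GFP_Barcode_122306 just outside at 93.5, 79.8 and 78.7 CPM.

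Together the 72 barcodes held a modest part of each leukaemia. Their summed share was 17.7%, 18.8% and 17.0% of the bone marrow of Ptprca mice 1, 2 and 3, and 14.6%, 11.3% and 12.3% of the bone marrow of NSG mice 4, 5 and 6. In spleen it was 5.45%, 7.18% and 6.71% in the Ptprca mice and 4.33%, 9.70% and 5.71% in the NSG mice. Every mouse had a smaller summed share in spleen than in bone marrow, the difference being least in NSG mouse 5. Group means were 17.9% ± 0.936 for Ptprca and 12.7% ± 1.71 for NSG bone marrow, and 6.45% ± 0.897 for Ptprca and 6.58% ± 2.78 for NSG spleen (SD, n = 3 each). Members were chosen on these values, so no test was made.

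The remainder lay mainly in 38 barcodes that also reached 10 CPM in all 6 mice but exceeded 10000 CPM in at least 1. Their share was 59.6% ± 2.74 (Ptprca) and 70.6% ± 1.90 (NSG) of bone marrow, and 85.6% ± 3.44 (Ptprca) and 83.6% ± 5.18 (NSG) of spleen (SD, n = 3 each). CPM are shares of a whole, so a larger share of these barcodes leaves less for the members. The most abundant barcode at disease, GFP_Barcode_52804, moved the NSG values. With it left out and the rest rescaled, the members held on average 15.99% of NSG against 17.9% of Ptprca bone marrow, and 13.1% of NSG against 6.47% of Ptprca spleen. The strains were then closer in bone marrow and further apart in spleen.

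At baseline the members held 22.3% of the library, but 9.97% lay in a single pair, GFP_Barcode_27492 and GFP_Barcode_132107. The other 70 held 12.3%. At disease the share of the same 70 barcodes was 17.6% ± 0.948 (Ptprca) and 12.2% ± 1.95 (NSG) of bone marrow, and 6.41% ± 0.897 (Ptprca) and 6.03% ± 2.86 (NSG) of spleen (SD, n = 3 each). Apart from the pair, the members' summed share of NSG bone marrow was thus close to that at the start, with single libraries on either side of it.

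Persistence did not mean a constant level. The median over the 6 mice ran from 40.6 CPM for GFP_Barcode_864 to 5859 CPM for GFP_Barcode_7083, with a median of 862 CPM over the 72 members. The highest mouse mean of a member exceeded its lowest by 2.83 to 977 times, with a median of 25.9 times. Only 9 members reached 1000 CPM in all 6 mice, 60 did so in at least 1 mouse, and 38 were below 100 CPM in at least 1. The SD of log2(mouse mean + 1) over the 6 mice had a median of 1.76 for the members, 1.75 for the 38 barcodes with a dominant mouse and 3.26 for all 373 tested barcodes, those with 10 CPM or more in no fewer than 3 of the disease libraries. The rule bounds this spread for the members, and no test was made.

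Within a strain, the SD of log2(CPM + 1) between the 3 bone marrows had a median over the 72 members of 1.93 in Ptprca and 1.32 in NSG mice. Between the 3 spleens it was 1.38 in Ptprca and 2.43 in NSG mice. The error of a mean of 2 repeats, taken as the SD of their log2 ratio divided by 2, was 0.14 to 0.18 in Ptprca bone marrow, 0.23 to 0.31 in NSG bone marrow, 0.13 to 0.21 in Ptprca spleen and 0.88 to 1.09 in NSG spleen. It covers only members at 100 to 1000 CPM seen in both repeats, and technical repeats do not measure the spread between animals, so the figures stand side by side without a comparison.

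Of the 5 steadiest members, GFP_Barcode_7083, GFP_Barcode_9897 and GFP_Barcode_455 were also among the 6 with the highest median. GFP_Barcode_7083 had mouse means of 2586, 6729 and 8267 CPM in the Ptprca mice and 5580, 4709 and 6139 CPM in the NSG mice, the highest median of all members and the smallest spread (SD 0.58 on the log2 scale). It was thus within a factor of 3.20 over animals of both strains. GFP_Barcode_16968 had 4031, 1759 and 1424 CPM in the Ptprca mice and 2177, 3108 and 1568 CPM in the NSG mice (SD 0.59). The strains overlapped for both.

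GFP_Barcode_9897 and GFP_Barcode_36463 followed, with SDs of 0.62 and 0.63. GFP_Barcode_9897 stood at 2120, 5657 and 3565 CPM in mice 1, 2 and 3 and at 1983, 2903 and 4816 CPM in mice 4, 5 and 6. Its organs were less even than these means, since bone marrow held 328 CPM and spleen 3912 CPM in Ptprca mouse 1, and 10754 and 561 CPM in Ptprca mouse 2. GFP_Barcode_36463 had mouse means between 1223 and 4429 CPM, and GFP_Barcode_455 between 1734 and 6602 CPM (SD 0.74). Both were far more abundant in the starting cells, as described below.

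At the other end, the 5 most variable members stood at 10.2 to 30.6 CPM in their lowest mouse and at 2512 to 9936 CPM in their highest. GFP_Barcode_32687 had mouse means of 44.8, 9936 and 192 CPM in the Ptprca mice and 2048, 588 and 10.2 CPM in the NSG mice, the largest spread of all members (SD 3.59). Its bone marrow value of 19129 CPM in Ptprca mouse 2 was the highest of any member in any disease library, while in NSG mouse 6 it held 20.3 CPM in bone marrow and was at 0 in spleen. GFP_Barcode_72169 was low in a single animal, Ptprca mouse 1, at 23.3 CPM, and stood between 1851 and 8459 CPM in the other 5.

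GFP_Barcode_59251 varied within each strain, at 267, 11.6 and 367 CPM in Ptprca and 3645, 1728 and 66.5 CPM in NSG mice. GFP_Barcode_5360 ran from 30.6 CPM in Ptprca mouse 2 to 6238 CPM in NSG mouse 4. For GFP_Barcode_2318 the strains did not overlap, with 24.3, 491 and 22.7 CPM in Ptprca and 776, 2512 and 1261 CPM in NSG mice. The most abundant member was a different barcode in each animal, namely GFP_Barcode_69787, GFP_Barcode_32687, GFP_Barcode_78457, GFP_Barcode_5360, GFP_Barcode_15798 and GFP_Barcode_585 in mice 1 to 6.

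A mouse mean under 10000 CPM did not keep a member below that level in each organ. Of the 72 members, 17 reached 10000 CPM in at least 1 library, in 21 library values, of which 17 were in bone marrow and 4 in spleen. GFP_Barcode_15798 was above 10000 CPM in the bone marrow of NSG mice 5 and 6, at 10210 and 10415 CPM, and just below it in NSG mouse 4, at 9859 CPM. GFP_Barcode_585 held 10074 CPM of NSG mouse 4 bone marrow and was at 0 in the spleen of the same animal, but held 11136 CPM of NSG mouse 6 spleen. GFP_Barcode_72169 reached 15857 CPM in Ptprca mouse 2 spleen, with 1061 CPM in the bone marrow of that mouse.

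Absence from a library was mostly a matter of the NSG spleens. Of 864 values (72 members in 12 disease libraries), 32 were 0. The NSG spleens held 29 of these zeros, Ptprca spleens 2 and NSG bone marrow 1, and no Ptprca bone marrow held any. In NSG mouse 4 spleen 15 members were at 0, below a floor of 1.199 CPM, and the spleens of NSG mice 5 and 6 had 7 each, below floors of 0.937 and 0.816 CPM. A zero there means not detected in either repeat at this depth. It does not place a barcode under the floor, because repeats of these spleens could differ widely. In NSG mouse 5 spleen, for example, the repeats of GFP_Barcode_2672 held 0 and 63.4 CPM. Members at 10 to 1000 CPM were seen in both repeats in 78.0%, 70.3% and 87.5% of cases in the spleens of NSG mice 4, 5 and 6, against 97.1% or more in every other library. In all, 46 members were above 0 in all 12 libraries and 30 were at 10 CPM or more in all 12. GFP_Barcode_21311, the member at 0 in most libraries, was missing from 3 spleens, those of Ptprca mouse 2 and NSG mice 4 and 6, and held 2620 CPM of NSG mouse 5 spleen. It was singled out after its values were seen.

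Among the members, abundance in the starting cells and at disease were weakly related. Spearman's rho across the 72 barcodes between baseline and the median mouse mean was 0.31. Against single mice, rho was 0.12 to 0.19 (Ptprca) and 0.22 to 0.30 (NSG). These values are descriptions over barcodes that share libraries, and both variables are bounded by the rule. The mean over 6 mice was above baseline for 39 members and below it for 33, with a median ratio of 1.21. In 6 members all 6 mice were above baseline, in 16 all 6 were below, and 50 had mice on both sides. The starting cells gave 1 library, so the ratios have no replicate check and carry no test.

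GFP_Barcode_7083 had the highest ratio of disease to baseline. It held 276 CPM in the starting cells (95% Wilson interval 261 to 290 CPM) and a mean of 5668 CPM at disease, 20.6 times as much, with every mouse above baseline. GFP_Barcode_88835 was 12.1 times its baseline of 115 CPM (106 to 125 CPM), a mean carried by Ptprca mouse 1 at 6524 CPM, while the other 5 mice stood between 61.2 and 821 CPM. GFP_Barcode_117016 was 9.18 times, GFP_Barcode_13746 8.43 times and GFP_Barcode_6985 8.12 times its baseline. Their highest mouse means were 5442 CPM in Ptprca mouse 1, 8279 CPM in Ptprca mouse 2 and 5937 CPM in Ptprca mouse 3, respectively. For GFP_Barcode_117016, NSG mice 5 and 6 were also well above the baseline of 188 CPM, at 1815 and 1644 CPM. GFP_Barcode_7083 was the exception among the 5 in being high in all animals.

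The lowest ratios belonged to the pair most abundant at the start. GFP_Barcode_27492 held 52899 CPM at baseline (95% Wilson interval 52703 to 53096 CPM) and 1429, 457, 202, 1152, 2607 and 4029 CPM in mice 1 to 6, a mean 32.1 times lower. GFP_Barcode_132107 held 46832 CPM at baseline and a mean 29.3 times lower. GFP_Barcode_7722, GFP_Barcode_5839 and GFP_Barcode_94075, at 4669, 5132 and 2373 CPM at baseline, had means 18.3, 15.7 and 14.3 times lower. All 6 mice were below baseline for each of these 5 barcodes.

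Other members abundant at the start had ratios closer to 1. GFP_Barcode_36463 held 15276 CPM at baseline (15168 to 15384 CPM) and GFP_Barcode_455 11590 CPM (11496 to 11684 CPM), and their disease means were 5.57 and 3.00 times lower. GFP_Barcode_136455, at 6642 CPM at baseline, had a mean 5.86 times lower, with 3671 CPM in Ptprca mouse 1 and 470 to 860 CPM in the other mice. In contrast to the widely spread members above, GFP_Barcode_36463 and GFP_Barcode_455 had mouse means of similar size in all 6 animals. Their organs were less even. In Ptprca mouse 3, GFP_Barcode_455 held 8562 CPM of bone marrow and 1247 CPM of spleen. In NSG mouse 5 it held 1830 and 7181 CPM, respectively.

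The division of the members between spleen and bone marrow was compared next. The rule took the mean of both organs, so a barcode could pass through the organ where it was high alone, and the comparisons below use the same values and are not independent of the choice of members. Judged on bone marrow alone, 49 barcodes passed, of which 45 were among the 72, and on spleen alone 41 passed, of which 33 were. In mice 1 to 6, 54, 57, 48, 56, 44 and 53 of 72 members were lower in spleen. As shares these were 75%, 79.2%, 66.7%, 77.8%, 61.1% and 73.6%, against 55.8%, 49.1%, 44.8%, 61.9%, 61.4% and 57.4% of the 373 tested barcodes, so that NSG mouse 5 showed no excess. By the rule a member could not be at 0 in both organs of a mouse, and none had equal values there. A tested barcode could be, and it then counted as not lower. Such ties lower the shares of the tested barcodes here and below, by an amount not measured, and pull their medians toward 0. The median difference of the members, spleen minus bone marrow on the log2(CPM + 1) scale, was -1.65, -2.40 and -1.25 in the Ptprca mice and -2.70, -0.78 and -1.99 in the NSG mice. Over all tested barcodes it was -0.34, 0 and 0 in the Ptprca mice and -1.62, -1.06 and -0.98 in the NSG mice. No member was higher in spleen in all 6 mice, and 9 of 72 (12.5%) were lower in spleen in all 6, against 5.90% of the 373 tested barcodes. In Ptprca mice alone, without the noisy NSG spleens, 31 of 72 members were lower in spleen in 3 of 3 mice, against 18.8% of the tested barcodes, and 4 were higher in 3 of 3, against 2.68%. In NSG mice the counts were 27, against 24.1%, and 1, against 1.61%.

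Among those lower in spleen in every mouse, GFP_Barcode_12499 had the largest mean difference. It held 6749, 859 and 816 CPM in Ptprca and 330, 2846 and 2038 CPM in NSG bone marrow, and 869, 141 and 433 CPM in Ptprca and 53.8, 43.0 and 56.5 CPM in NSG spleen. By limma, spleen minus bone marrow was -3.37 (log2, SE 1.15, adjusted p = 0.306). GFP_Barcode_2672 held 4690, 5091 and 7550 CPM in Ptprca and 1907, 2110 and 3526 CPM in NSG bone marrow, and 626, 2632 and 1431 CPM in Ptprca and 99.5, 31.7 and 666 CPM in NSG spleen. Its difference was -3.15 (SE 0.96, limma adjusted p = 0.306), the smallest unadjusted p of the members in this comparison, 0.00448. The next in size were GFP_Barcode_53340 (-3.02), GFP_Barcode_42003 (-2.85) and GFP_Barcode_117016 (-2.62), with limma adjusted p values of 0.547, 0.306 and 0.431. None of the 5 passed the test, although each was lower in 6 of 6 spleens.

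Over both strains limma called 0 of 72 members between the organs at an adjusted p of 0.05, as it called 0% of the tested barcodes, and 16 of 72 (22.2%) had an unadjusted p under 0.05, each lower in spleen, against 9.12% of tested barcodes. In this fit the members also had a smaller SE, with a median of 1.46 against 1.83 for all tested barcodes. At an equal difference, a smaller SE gives a smaller p. This fit did not pair the organs of a mouse. With the mouse as a block, limma again called 0 of 72. The unadjusted p was then under 0.05 for 21 of 72 (29.2%), against 18.0% of tested barcodes. The estimate was below 0 for 67 of 72 members, with a median of -1.89. The median was -1.49 for the 38 barcodes with a dominant mouse and -1.37 for all 373. The tested barcodes as a whole were thus shifted in the same direction. With centred log-ratios, which set the mean of the tested barcodes to 0 in each library, the median of all tested barcodes moved to 0.06 and that of the members to -0.46, 42 of 72 were below 0, and 0 had an unadjusted p under 0.05. Centring shifts every barcode by the same amount, so it changes the counts but not the gap between the members and the rest. No single member was shown to differ.

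Within each strain no member passed either. In Ptprca mice limma called 0 of 72 (0% of the tested barcodes), with 1 member at an unadjusted p under 0.05, lower in spleen (2.14% of the tested barcodes in either direction and 1.34% lower), and the median difference was -1.42 against -0.84 for all tested barcodes. In NSG mice it called 0 of 72 (0.268% of the tested barcodes). There 16 members were at an unadjusted p under 0.05, each lower in spleen (11.3% of the tested barcodes). The median difference was -1.85 against -1.66 for all tested barcodes, and the median SE 2.06 against 2.59. In NSG mice the direction turned on the scaling: 60 of 72 members were below 0 in the main setting, but 35 with centred log-ratios, where the median was 0.17 and 2 of the 5 members at an unadjusted p under 0.05 were higher in spleen. The difference of the organ effect between strains gave 0 limma calls among the members (0% of the tested barcodes) and 2 at an unadjusted p under 0.05 (4.02%). The NSG value rests on the 3 spleens with poor repeats, whose part in it was not tested. The rank order of the members was shared between the organs of 1 animal with a Spearman's rho of 0.71, 0.64 and 0.73 in Ptprca mice 1, 2 and 3, and of 0.27, 0.18 and 0.45 in NSG mice 4, 5 and 6.

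The strains were compared next, with the caution that a barcode kept between 10 and 10000 CPM in every mouse cannot show the differences of a barcode lost in 1 strain. In bone marrow limma called 0 of 72 members (1.07% of the tested barcodes), with 7 (9.72%) at an unadjusted p under 0.05 against 15.8% of the tested barcodes. Of all 72 members, 4 were at that p and lower in NSG mice, against 6.43% of the tested barcodes (24 of 373). Among barcodes at that p, 4 of 7 members were lower, and 24 of 59 tested barcodes. With centred log-ratios 9 of 10 members at that p were lower. In spleen limma called 0 of 72 (1.07% of the tested barcodes), with 6 (8.33%) at an unadjusted p under 0.05 against 9.92%. Of all 72 members, 2 were at that p and lower in NSG mice, against 6.97% of the tested barcodes (26 of 373). Among barcodes at that p, 2 of 6 members were lower, and 26 of 37 tested barcodes. In spleen 0 of 4 were lower with centred log-ratios and 0 of 5 with GFP_Barcode_52804 left out. Over all 72 members, 42 were higher in NSG bone marrow in the main setting and 30 with centred log-ratios. In spleen 28 were higher in NSG mice in the main setting, 34 with centred log-ratios and 42 with GFP_Barcode_52804 left out, so no direction for the members as a group is given. Bone marrow values did not overlap between strains for 5 members higher in NSG mice (6.94%, against 10.2% of tested barcodes) and 9 higher in Ptprca mice (12.5%, against 8.04%). In spleen the counts were 4 (5.56%, against 4.02%) and 9 (12.5%, against 11.3%). These shares lie near those of all tested barcodes.

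The member nearest to a call was GFP_Barcode_15540. In bone marrow it held 87.9, 106 and 56.0 CPM in Ptprca mice and 3453, 3067 and 2849 CPM in NSG mice, so that the strains were far apart and the 3 NSG animals within a narrow range. In spleen it held 454, 753 and 91.8 CPM in Ptprca mice and 248, 0 and 11.7 CPM in NSG mice, with some overlap and the opposite order of means. By limma on log2(CPM + 1), NSG minus Ptprca was 5.26 in bone marrow (SE 1.22, adjusted p = 0.0795) and -4.43 in spleen (SE 2.52, adjusted p = 0.536). The bone marrow adjusted p was 0.0165 without a filter and 0.0412 with a filter of 100 CPM, and 0.0165 to 0.318 over 14 alternatives. The call thus depended on the filter. In Ptprca mouse 3 bone marrow its repeats held 6.48 and 106 CPM, by the repeat depths adopted for that library.

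On the Ptprca side of bone marrow, GFP_Barcode_73637 held 6154, 6334 and 12354 CPM in Ptprca and 1629, 921 and 896 CPM in NSG mice (difference -2.83, SE 0.81, limma adjusted p = 0.127). GFP_Barcode_27147 held 3275, 7895 and 3831 CPM against 496, 483 and 108 CPM (difference -3.96, SE 1.14, limma adjusted p = 0.127). Each was higher in all 3 Ptprca bone marrows, and neither passed. In spleen the lowest adjusted p of a member was that of GFP_Barcode_2318, at 6.96, 12.1 and 3.42 CPM in Ptprca and 594, 4948 and 717 CPM in NSG mice (difference 7.38, SE 2.01, limma adjusted p = 0.173). GFP_Barcode_73637 and GFP_Barcode_27147 were named after their values were seen.

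Likeness of animals was also compared across the members as a whole. Spearman's rho between the mouse means of 2 animals was 0.50 to 0.55 over the 3 NSG pairs, 0.31 to 0.53 over the 3 Ptprca pairs and 0.12 to 0.50 over the 9 pairs between strains. These are descriptions over 72 barcodes with overlapping ranges and carry no test.

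Some pairs of members moved together over the 13 libraries, baseline included. Likeness was measured as the SD of the log2 ratio of CPM + 1 over the libraries, and its median over the 2556 pairs of members was 3.40. Only 5 pairs were under 1, a limit set after the values were seen. GFP_Barcode_27492 and GFP_Barcode_132107 were the closest, with an SD of 0.25 and a ratio of 1.13 at baseline and 0.827 to 1.47 over all libraries. For GFP_Barcode_7722 and GFP_Barcode_94075 the SD was 0.46, and the ratio of CPM + 1 ran from 1 to 3.41. The lowest ratio came from NSG mouse 4 spleen, where both were at 0. The highest came from Ptprca mouse 3 bone marrow, where the values were so low that the added 1 narrowed the ratio. Their bone marrow values were 262 and 142, 934 and 643, 3.15 and 0.216, 23.6 and 21.1, 767 and 550, and 152 and 67.8 CPM in mice 1 to 6, so that both were high in mice 2 and 5 and low in mice 3 and 4. The 2 lowest, in Ptprca mouse 3, are below the floor of that library.

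The other 3 pairs were GFP_Barcode_51695 with GFP_Barcode_69787 (SD 0.73), GFP_Barcode_2713 with GFP_Barcode_81016 (SD 0.84) and GFP_Barcode_12499 with GFP_Barcode_117016 (SD 0.86). Their ratios of CPM + 1 were far from fixed, at 0.183 to 1, 0.331 to 3.28 and 0.160 to 1.57, respectively. GFP_Barcode_2713 held 917, 7533, 1207, 5600, 131 and 709 CPM in the bone marrow of mice 1 to 6, and GFP_Barcode_81016 held 720, 6258, 1030, 5020, 91.8 and 627 CPM. Their ratio varied little in bone marrow (SD 0.13) and more in spleen (SD 1.25). GFP_Barcode_51695 and GFP_Barcode_69787 were both at 0 in NSG mouse 5 spleen, and otherwise GFP_Barcode_69787 was the higher of the pair. Statistics of such pairs are not independent of each other.

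The same measure also linked members to barcodes outside the group. Of 21672 pairs of a member and another tested barcode, with a median SD of 4.25, 9 were under 1, and they involved 8 members. The closest partner of 7 of these 8 reached 10000 CPM in at least 1 mouse. The share of all 301 other tested barcodes that did so is not given here, so this count does not show an excess. GFP_Barcode_7083, the most abundant member, tracked GFP_Barcode_69276, which was dominant in all 6 mice, with the smallest SD of all, 0.18. In bone marrow GFP_Barcode_7083 held 3202, 9003, 11392, 5000, 8064 and 8866 CPM in mice 1 to 6, and GFP_Barcode_69276 held 27332, 72866, 80727, 42820, 64490 and 63910 CPM. The ratio of the larger to the smaller was 9.04 at baseline and 5.71 to 9.08 over the 13 libraries. Its second closest partner had an SD of 1.30. The steadiest member thus followed a dominant barcode at a lower level in every library.

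GFP_Barcode_117016 and GFP_Barcode_12499 both tracked GFP_Barcode_618, with SDs of 0.27 and 0.65, so that these 3 moved together. GFP_Barcode_618 held 59247, 6756 and 5706 CPM in Ptprca and 1563, 20643 and 17440 CPM in NSG bone marrow, and was 5.92 times GFP_Barcode_117016 in the median library. GFP_Barcode_15540, the member nearest to a call between strains in bone marrow, tracked GFP_Barcode_14177 (SD 0.62) and GFP_Barcode_57652 (SD 0.89). Both partners missed the group by their baseline, of 35.0 and 93.5 CPM, respectively. GFP_Barcode_57652 held 148, 164 and 67.0 CPM in Ptprca and 5470, 4846 and 5011 CPM in NSG bone marrow, and was likewise at 0 in the spleen of NSG mouse 5. All 3 showed the same pattern over the animals.

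There were 4 further links. GFP_Barcode_27147 went with GFP_Barcode_24738 (SD 0.83), whose ratio to it was 1.504 at baseline and 4.28 in the median library. GFP_Barcode_73637 went with GFP_Barcode_96571 (SD 0.85, with a ratio of 0.412 at baseline and 2.12 in the median library). GFP_Barcode_15798 went with GFP_Barcode_18532 (SD 0.87) and GFP_Barcode_156408 with GFP_Barcode_22108 (SD 0.88). The partners were picked from 301 other tested barcodes after the values were seen. Whether linked barcodes sat in the same founder cells was not tested.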

How the data were processed

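The authors deposited barcode abundances as CPM in 1 table of 13 libraries, each column summing to 1000000. Per the submitters' processing notes, the tools were Bowtie 1.2.2 and R 3.6, with settings not given in the sources used here. Lysates were split into technical replicates, per the labels' protocols. Each value below 60 CPM could be written as whole reads of 2 repeats, averaged (tolerance 1e-06 CPM), which yielded the reads of each repeat for values under 1000 CPM. No count model was fitted, because a value averages repeats that differ in depth.

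Groups and mouse numbers came from sample titles. limma 3.58.1 (R 4.3.3) was fitted on log2(CPM + 1), a scale that understates changes of low barcodes, to 373 barcodes that reached 10 CPM in 3 or more disease libraries, all 72 members among them. The variance prior followed a trend, and p-values were adjusted by Benjamini-Hochberg over all 373 at 0.05. Strains were compared over 6 libraries within each organ, and organs over all 12 with 4 group means. The script was run on simulated data drawn independently for each library. These had no shared mouse effect, so that run could not check how leaving the organs unpaired affects the p-values. Descriptions came from Python 3.11.15 with scipy 1.17.1, pandas 2.3.3 and numpy 2.4.6.

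A mouse number in the titles pairs the organs of 1 animal. Over the 373 barcodes, the paired deviations from group means had correlations of 0.77 to 0.80 (Ptprca) and 0.21 to 0.25 (NSG). The members, lists and the rule for named barcodes were chosen with earlier results of these data known. The rule took the most abundant, steadiest and most variable members, those most above or below baseline or most abundant there, called members, those in 1 organ's favour in all 6 mice (up to 5 each), the 5 closest pairs, barcodes at each threshold, and the most abundant barcode at disease. Alternatives changed the pseudocount (10 or 0.1), the filter, the scaling, the variance prior and the limits of the rule, added the mouse as a block or as a random effect, or left out each mouse.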

Additional observations from a re-analysis of the deposited data

Results flagged for a closer look

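GFP_Barcode_15540 was set apart because its organs differed in opposite directions in the strains. Spleen was above bone marrow in 3 of 3 Ptprca mice and below it in 3 of 3 NSG mice. The difference of the organ effect itself, NSG minus Ptprca, was -9.69 on the log2(CPM + 1) scale (SE 2.93) and did not pass (limma adjusted p = 0.382 over 373 barcodes). The repeats of NSG mouse 4 spleen held 400 and 95.1 CPM of this barcode and those of NSG mouse 6 spleen 7.06 and 16.3 CPM, each below every NSG bone marrow value. In all, 3 of 72 members and 5 of 373 tested barcodes had this pattern, and 0 had the reverse. The 5 included GFP_Barcode_14177 and GFP_Barcode_57652, which tracked GFP_Barcode_15540, so they are not independent cases. The part of the noisy NSG spleen repeats in this pattern was not tested.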

How the results depend on the processing

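No member was called in any of the 6 limma comparisons in the main setting, and the counts stayed at 0 under the alternatives run, each mouse left out and the replicate block included, except in 2 cases. In bone marrow between strains, 1 member, GFP_Barcode_15540, was called without a filter and 1 with a filter of 100 CPM. The number of members, 72, was 41 with spleen alone and 75 to 84 with each mouse left out. Their summed share moved from 17.9% to 16.6% in Ptprca bone marrow with a minimum mouse mean of 20 CPM. With mouse means under 5000 CPM it was 5.99% in Ptprca bone marrow, 1.89% in Ptprca spleen, 5.56% in NSG bone marrow and 3.43% in NSG spleen. Without GFP_Barcode_52804 it was 15.99% in NSG bone marrow and 13.1% in NSG spleen. The cause of these shifts follows from fewer barcodes counted or a smaller total. The median spread between mice, 1.76, was 2.55 with spleen alone, and the cause was not tested. The alternative without the NSG spleens was added after seeing the data. With the mouse as a replicate block, the lowest adjusted p of a member was 0.151 for the organs over both strains, 0.879 in Ptprca, 0.0505 in NSG and 0.229 for the difference between strains, and no call changed. Depth limits values near the floors, and repeats limit the NSG spleens.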
